A study of Mus musculus with 6 samples.

Results

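The genes described are 10 of the deadenylation machinery, Cnot1, Cnot2, Cnot3, Cnot4, Cnot6, Cnot6l, Cnot7, Cnot8, Parn and Pan2. They were taken by symbol from a deposited table of 24391 symbols, and all 10 were found and passed the low-count filter, as did 15925 genes in all. RNA came from hemibrains of newborn mice at postnatal day 0, 3 with the genotype Celf2 -/- (numbers 2, 4 and 10, called nulls) and 3 with the genotype Celf2 +/- (numbers 6, 7 and 11, called controls). The controls are heterozygous, so both groups carry a Celf2 mutation, and no wild type was compared. The labels name no strain, allele, sex, litter or treatment.

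Deadenylases remove the poly(A) tail of an mRNA from its end, which is usually the step that commits the mRNA to decapping and decay. In animals PAN2-PAN3 is held to trim long tails, and the CCR4-NOT complex to remove the rest. CNOT1 is the scaffold on which the other subunits assemble. RNA-binding proteins such as the CELF, Pumilio and ZFP36 families bring deadenylases to chosen mRNAs, and vertebrate CELF1 is known to recruit PARN. The contrast asked whether the mRNAs of this machinery differ between mice with no intact Celf2 allele and mice with 1. Read totals measure mRNA levels and not tail lengths or deadenylase activity.

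Each of the nuclease subunits of CCR4-NOT is encoded by a pair of paralogs, so reads of one gene could in principle be counted for the other. The longest open reading frames of GENCODE M21 transcripts were compared for this reason. Cnot6 and Cnot6l shared 73.7% of 1651 aligned coding bases, and Cnot7 and Cnot8 shared 71.6% of 857. The longest identical run was 20 bases in each pair, and neither pair shared a 30-base word. The sequences around these runs are shown with 30 bases on either side. Capitals mark the bases that differ, 16 of 80 in the first pair and 19 of 80 in the second. Other stretches were not searched for fewer differences. They cover coding bases 1270 to 1349 of Cnot6, 1264 to 1343 of Cnot6l, and 433 to 512 of both Cnot7 and Cnot8, counted from 1 at the start codon.
Cnot6: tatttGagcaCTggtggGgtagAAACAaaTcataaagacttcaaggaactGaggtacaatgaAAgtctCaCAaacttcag
Cnot6l: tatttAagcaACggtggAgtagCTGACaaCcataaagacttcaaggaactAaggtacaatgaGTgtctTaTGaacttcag
Cnot7: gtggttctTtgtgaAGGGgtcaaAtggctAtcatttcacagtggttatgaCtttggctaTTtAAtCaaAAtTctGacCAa
Cnot8: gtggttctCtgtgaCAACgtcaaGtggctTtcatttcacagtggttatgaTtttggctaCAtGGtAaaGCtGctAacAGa
Neither the read length nor the treatment of reads with several matches is given in the sources used here.

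Library totals lay between 28831997 and 36531980 counts, and the 10 genes together took between 0.0668% and 0.0852% of them. Celf2 measured 458, 403 and 362 CPM (counts scaled to a library of 1000000) in controls 6, 7 and 11, against 448, 390 and 331 CPM in nulls 2, 4 and 10 (log2 fold change -0.07, SE 0.12, edgeR adjusted p = 0.955). Totals over a whole gene cannot tell which of its exons gave reads and do not check the genotype labels, and every direction below rests on those labels. Null 2 had 11.8% of its counts on Rn45s, a precursor of ribosomal RNA, where the other libraries had at most 1.27%. Neuronal markers, in 6 genes, summed to 5830 to 6540 CPM in control and 6060 to 6570 CPM in null libraries, as the tissue label has it. Telencephalic markers summed to 741 to 859 CPM in control and 1040 to 1200 CPM in null libraries, with 6 of 6 genes at positive fold changes. Hindbrain Hox genes summed to 15.3, 151 and 8.03 CPM in controls 6, 7 and 11, so that control 7 stood apart, and to 2.80 to 5.89 CPM in null libraries, with 6 of 6 tested genes negative. Astrocyte markers summed to 1350 to 1490 CPM in control and 1010 to 1310 CPM in null libraries, with 6 of 6 negative. Summed levels overlapped for the oligodendrocyte lineage (356 to 441 against 333 to 412 CPM) and for microglia (68.5 to 86.5 against 70.5 to 86.5 CPM). They also overlapped for endothelium (141 to 160 against 138 to 173 CPM) and erythroid genes (6.05 to 10.3 against 4.86 to 7.44 CPM). Choroid plexus sums overlapped too (535 to 786 against 503 to 747 CPM), although 4 of 4 genes were positive. No marker list was tested as a whole, and the part of these markers in the results below was not tested. In whole tissue, fewer cells of a type and less RNA per cell cannot be told apart.

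Levels were compared between genes as RPKM, which is CPM divided by the deposited gene length in units of 1000 bases. The label Length does not say how that length was defined, and the order of the genes depends on it. In CPM, not divided by length, Cnot6 (means of 130 in controls and 127 in nulls) lay above Cnot7 (113 and 109). Of the nuclease subunits, Cnot7 was highest at 40.3 ± 3.58 RPKM (SD over 6 libraries), and its paralog Cnot8 followed at 29.3 ± 1.12. The other nuclease pair was unequal, with Cnot6 at 22.4 ± 2.46 and Cnot6l at 5.13 ± 0.69 RPKM. Cnot6 exceeded Cnot6l between 3.90-fold and 4.71-fold in every library, and Cnot7 exceeded Cnot8 between 1.27-fold and 1.59-fold. Among the non-catalytic subunits, the scaffold Cnot1 was at 19.95 ± 2.62 RPKM, Cnot2 at 22.3 ± 1.45 and Cnot3 at 16.6 ± 2.48, the latter 2 forming the NOT module on its C-terminal part. Cnot4, a RING-type ubiquitin ligase that is not a stable subunit in animals, was lowest at 4.42 ± 0.60 RPKM. The other deadenylases, Parn and Pan2, were at 12.7 ± 0.69 and 10.1 ± 1.03 RPKM.

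**Figure D1:**
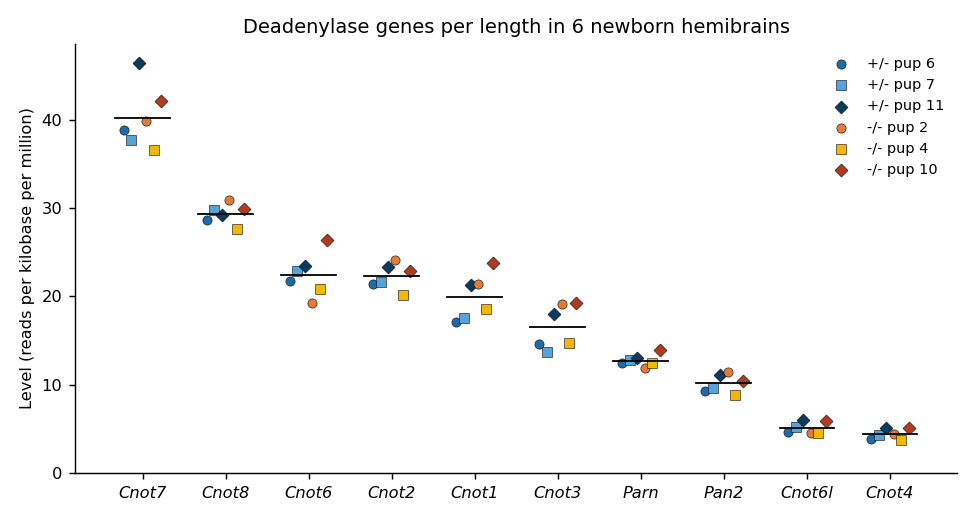
Level of each deadenylase gene in RPKM (vertical axis, from 0) in each of 6 libraries (points, controls blue and nulls orange to red), with the mean over the 6 as a bar. Cnot7 and Cnot8 are highest and Cnot6l and Cnot4 lowest, and the points of both genotypes intermix for every gene.

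The order from Cnot7 to Cnot4 was the same in both genotype means, except that Cnot6 and Cnot2 exchanged the third and the fourth place. Neighbours whose ranges over the 6 libraries overlapped were Cnot6 and Cnot2, Cnot2 and Cnot1, Cnot1 and Cnot3, Cnot3 and Parn, and Cnot6l and Cnot4. Ranges did not overlap between Cnot7 and Cnot8, Cnot8 and Cnot6, Parn and Pan2, or Pan2 and Cnot6l. Against all 15925 tested genes, Cnot7 stood at the 87.9th percentile of mean RPKM and Cnot4 at the 37.9th, with Parn at the 62.9th. The remaining subunits lay within the range of the 10, with Cnot10 at 24.0 ± 2.32 RPKM, Cnot9 (Rqcd1 in the table) at 16.7 ± 1.48 and Cnot11 at 11.9 ± 1.16. Pan3, the RNA-binding partner of the nuclease Pan2, was at 10.4 ± 1.07 RPKM.

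RefSeq promoters (build GRCm38.p6, 250 bases before to 50 after a start) were matched for 8 of the 10 genes, all but Cnot1 and Cnot7, as 14 sequences. Their median GC content was 64.3% and their median ratio of observed to expected CpG 0.87, against 60.3% and 0.72 over 15132 promoters of tested genes. Cnot2, Cnot6l and Cnot8 gave several sequences each, some of them overlapping, and so weigh more in these medians. The promoters of Cnot6 and Cnot6l are shown because these paralogs differed most in level, with CpG dinucleotides in capitals. That of Cnot6 (chr11:49712673-49712972, minus strand) held 33 CpG and that of Cnot6l (chr5:96161941-96162240, minus strand, the most upstream of 3 listed) held 49. The others listed for Cnot6l held 40 and 31, so the contrast with Cnot6 depends on the start chosen.
Cnot6: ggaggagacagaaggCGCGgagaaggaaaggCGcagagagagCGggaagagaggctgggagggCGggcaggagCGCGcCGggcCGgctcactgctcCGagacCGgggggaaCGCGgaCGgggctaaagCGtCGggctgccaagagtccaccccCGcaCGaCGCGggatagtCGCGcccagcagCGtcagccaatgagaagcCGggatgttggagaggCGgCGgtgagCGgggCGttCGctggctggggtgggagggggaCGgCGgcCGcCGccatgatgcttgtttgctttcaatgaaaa
Cnot6l: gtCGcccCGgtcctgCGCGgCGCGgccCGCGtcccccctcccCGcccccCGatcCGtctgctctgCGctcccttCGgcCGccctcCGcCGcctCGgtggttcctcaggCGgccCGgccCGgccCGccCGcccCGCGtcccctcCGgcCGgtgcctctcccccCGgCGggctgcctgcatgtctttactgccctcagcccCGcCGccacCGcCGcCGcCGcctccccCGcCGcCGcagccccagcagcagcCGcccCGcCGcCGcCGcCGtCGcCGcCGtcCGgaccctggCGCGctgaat
An ETS-type word, CCGGAAGT, was found on either strand in 1 of the 14 (Parn), and in 6.62% of promoters of tested genes and 3.89% of all 32851 promoters. An NRF1-type word, GCATGCGC, was found in 1 (Cnot4), and in 4.58% and 2.71%. TATAAA was found in 0 of the 14, and in 7.68% and 13.6%. The words do not overlap each other in these promoters. These matches are descriptions of the letters and not binding sites.

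None of the 10 genes was called different between null and control hemibrains. Fold changes lay between -0.08 and 0.20 on the log2 scale, 6 positive and 4 negative, with a median of 0.01 against -0.001 over all genes tested. With edgeR's quasi-likelihood test, 0 of 10 passed at an adjusted p of 0.05, where 0.00628% of all tested genes passed, and the smallest adjusted p was 0.786. At an unadjusted p of 0.05, 0 of 10 were lower and 0 of 10 higher in null libraries, against 2.93% and 4.14% of all tested genes. The groups overlapped in CPM for all 10, whereas 6.47% of tested genes were separated with null lower and 6.21% with null higher. DESeq2 and limma-voom also called 0 of 10 by adjusted p and 0 of 10 by unadjusted p. For a list of 10 genes these counts are near the background. Nothing in the labels shows that replicates came from separate litters, so p-values measure the spread between these samples only.

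The scaffold gene and one NOT-module gene had the largest differences. Cnot1 was at 143, 147 and 178 CPM in controls 6, 7 and 11, against 179, 156 and 199 CPM in nulls 2, 4 and 10. Null 4 lay below control 11, so the groups overlapped. This gave a log2 fold change of 0.19 with an SE of 0.11 and a 95% interval from -0.04 to 0.42 (edgeR adjusted p = 0.786). Cnot3 was at 42.5, 39.9 and 52.2 CPM in controls, against 55.6, 42.8 and 55.85 CPM in nulls in the same order. Here too null 4 lay among the controls. Its log2 fold change was 0.20 (SE 0.13, interval -0.10 to 0.49, adjusted p = 0.842). Without control 11 the 2 fold changes were 0.30 and 0.32 (unadjusted p = 0.0135 and 0.0327, edgeR adjusted p = 0.371 and 0.474). Without null 4 they were 0.28 and 0.31 (unadjusted p = 0.0246 and 0.0362, edgeR adjusted p = 0.678 and 0.719), and without null 10 they were 0.10 and 0.13.

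Cnot2, which pairs with Cnot3 in the NOT module, was at 74.7, 75.5 and 81.1 CPM in controls and 84.2, 70.2 and 79.9 CPM in nulls. The highest and the lowest of the 6 values were both null, and the log2 fold change was 0.02 (SE 0.09). Cnot4 was at 27.6, 30.5 and 36.8 CPM against 31.5, 27.0 and 37.0 CPM. Both groups spanned nearly the same range, with a log2 fold change of 0.01 (SE 0.14).

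The Ccr4-type nucleases Cnot6 and Cnot6l have an endonuclease-exonuclease-phosphatase fold and act beside the Caf1-type nucleases. Cnot6 was at 125, 131 and 135 CPM in controls 6, 7 and 11, against 110.4, 119 and 151.5 CPM in nulls 2, 4 and 10. The control values lay inside the null range, and the coefficient of variation was 3.74% against 17.0%. The log2 fold change was -0.04 (SE 0.11). Without null 10 it was -0.18 (unadjusted p = 0.0496, edgeR adjusted p = 0.562), and without null 2 it was 0.06. Cnot6l was at 40.7, 45.8 and 53.0 CPM against 39.5, 40.25 and 52.1 CPM. Its highest values were in control 11 and null 10, and the log2 fold change was -0.08 (SE 0.13).

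The Caf1-type nucleases Cnot7 and Cnot8 bind CNOT1 directly and have a DEDD-type active site. Cnot7 was at 107, 104 and 128 CPM in controls and 110.1, 101 and 116 CPM in nulls. All null values lay between or just below the control ones, with a log2 fold change of -0.05 (SE 0.10). Cnot8 varied least, at 58.35, 60.6 and 59.4 CPM against 62.85, 56.2 and 60.8 CPM. Its log2 fold change was 0.01 (SE 0.08, interval -0.17 to 0.19).

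PARN is a cap-stimulated deadenylase that also trims small nuclear and telomerase RNAs. Parn was at 36.2, 37.0 and 37.8 CPM in controls and 34.4, 36.0 and 40.3 CPM in nulls. The control range lay inside the null range, and the log2 fold change was 0.00 (-0.0029, SE 0.098). Pan2 was at 41.5, 42.7 and 49.4 CPM against 51.1, 39.5 and 46.4 CPM. Nulls held both its highest and its lowest value, with a log2 fold change of 0.04 (SE 0.12).

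**Figure D2:**
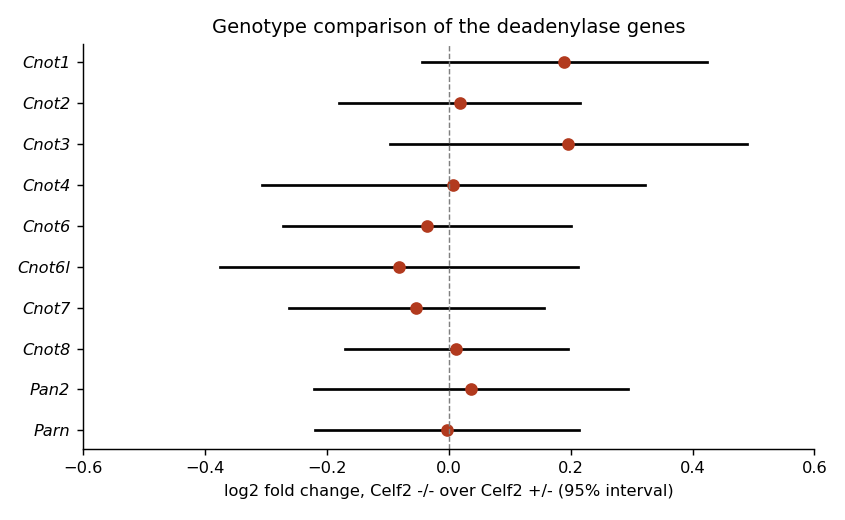
log2 fold change of each deadenylase gene, null over control (points), with the 95% interval from edgeR's quasi-likelihood fit (lines, n = 3 against 3). All 10 intervals cross 0, and those of Cnot1 and Cnot3 reach farthest to the right, to 0.42 and 0.49.

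The intervals give the differences that these 6 libraries leave possible. For Parn the null level was 99.8% of the control level, with an interval of 85.9% to 116%. For the nucleases it was 97.6% (82.9% to 115%) for Cnot6, 94.5% (77.1% to 116%) for Cnot6l, 96.4% (83.4% to 111%) for Cnot7 and 101% (88.9% to 114.5%) for Cnot8. Pan2 was at 103% (85.8% to 123%), Cnot2 at 101% (88.3% to 116%) and Cnot4 at 100.5% (80.9% to 125%). The widest upper bounds were those of Cnot1 at 114% (97.0% to 134%) and Cnot3 at 115% (93.5% to 140.4%). A halving or a doubling lies outside all 10 intervals.

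The balance within each nuclease pair was compared by share of RPKM. Cnot7 made up 57.6%, 55.9% and 61.4% of Cnot7 and Cnot8 together in controls 6, 7 and 11 and 56.4%, 57.0% and 58.5% in nulls 2, 4 and 10. The means were 58.3% ± 2.85 and 57.3% ± 1.10 (SD, n = 3 each), a difference of -1.0 percentage points (exact two-sided permutation p = 0.7, 0.8 adjusted over the 2 shares by Benjamini-Hochberg). Cnot6l made up 17.5%, 18.5% and 20.4% of Cnot6 and Cnot6l in controls and 18.9%, 18.0% and 18.3% in nulls. The means were 18.8% ± 1.46 and 18.4% ± 0.47 (SD, n = 3 each), with a two-sided exact permutation p of 0.8 (0.8 adjusted). The null shares lay inside the control range in both pairs. The smallest p this design allows is 0.1.

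The larger differences among libraries did not follow genotype. Each gene's log2 CPM was set against its own mean over the 6 libraries. In null 10, 0 of 10 genes lay below their own mean, and the median deviation was 0.17. In null 4, all 10 lay below, with a median of -0.14. Control 6 also had all 10 below (median -0.08), and control 11 had 1 of 10 below (median 0.12). Null 2 was mixed, with Cnot3 at 0.22 and Pan2 at 0.19 but Cnot6 at -0.21 and Cnot6l at -0.18. Control 7 had 6 of 10 below and a median of -0.04.

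**Figure D3:**
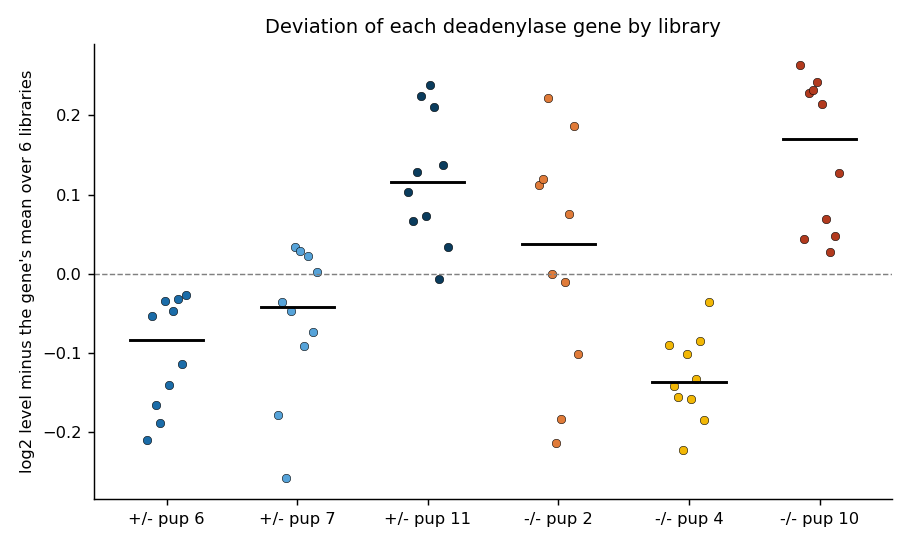
Deviation of each deadenylase gene from its own mean log2 CPM (vertical axis) in each library (points, 10 genes per library), with the median as a bar. All 10 points lie above 0 in null 10 and below 0 in null 4 and control 6.

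Over all genes tested the median deviation lay between -0.002 and 0.008 in every library. Gene length was looked at after these values had been seen, since the 10 genes are 2035 to 8814 bases long. Tested genes of at least 5000 bases had medians of -0.08, -0.02 and 0.03 in controls 6, 7 and 11, against 0.02, 0.02 and 0.05 in nulls 2, 4 and 10. Genes under 2000 bases had 0.10, 0.03 and -0.04, and -0.01, 0.00 (-0.0042) and -0.05, in the same order. The 4 longest of the 10 (Cnot1, Cnot4, Cnot6 and Cnot6l) had -0.16, -0.01 and 0.16, and -0.09, -0.13 and 0.24. The other 6, under 5000 bases, had -0.05, -0.05 and 0.10, and 0.10, -0.14 and 0.06. The 11134 tested genes at least as long as the shortest of the 10 had -0.03, -0.003 and 0.02, and 0.001, 0.01 and 0.03. The part of gene length in these deviations was not tested. The 4 remaining genes of the 2 complexes had medians of -0.06, 0.00 (-0.00061) and 0.12, and 0.00 (0.0047), -0.14 and 0.14.

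Genes around the deadenylases were read from 8 lists of 106 symbols, of which 103 were matched and 99 tested. Over all 8 lists 0 genes passed by the adjusted p of edgeR, and 0 by DESeq2 and 0 by limma-voom. At an unadjusted p of 0.05 edgeR counted 5 of 99 higher and 2 of 99 lower in nulls, near the 4.14% and 2.93% of all tested genes, and the counts for single lists are to be read against the same shares. Among the other CCR4-NOT subunits and PAN3, 1 of 4 was positive and 3 negative, with a median of -0.02. Pan3 had a log2 fold change of 0.11 (edgeR adjusted p = 0.908), and Cnot11, which with Cnot10 forms a module on the N-terminal part of CNOT1, was at -0.14 (adjusted p = 0.875). Genes listed as other deadenylases were 3 positive and 3 negative (median -0.02), and whether each of them shortens tails was not examined. Pde12, a mitochondrial poly(A) nuclease, was at 0.14. Noct (Ccrn4l in the table), a relative of the Ccr4-type nucleases known as nocturnin, was at -0.14.

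Adaptors that tie deadenylases to mRNAs held the widest spread. All 5 tested BTG/TOB genes, whose proteins bind the Caf1-type nucleases, were positive, with a median of 0.19 on the log2 scale and 1 of 5 at an unadjusted p of 0.05. That median was 0.35 without control 11 and 0.39 without null 10, but 0.16 without null 2. With library size alone it was 0.10. Tob1 was at 23.3, 25.6 and 25.6 CPM in controls 6, 7 and 11, against 36.4, 31.8 and 25.0 CPM in nulls 2, 4 and 10 (log2 fold change 0.32, SE 0.14, edgeR adjusted p = 0.678). Nulls 2 and 4 were above every control library, and null 10 was not. Btg2, chosen after its values were seen, was likewise high in nulls 2 and 4 and not in null 10, at 11.9, 7.40 and 10.2 CPM against 23.2, 52.1 and 9.45 CPM (1.52, SE 0.68, adjusted p = 0.756). Zfp36, which encodes the AU-rich element binder tristetraprolin and was also chosen after its values were seen, was at 2.31, 2.62 and 3.70 CPM against 8.94, 28.5 and 3.70 CPM (2.26, SE 0.84, adjusted p = 0.699), so that null 10 was level with control 11. Btg2 and Zfp36 are immediate-early response genes in many cells, and Fos, another that was chosen after its values were seen, was at 8.52, 6.43 and 4.50 CPM against 78.3, 235 and 4.86 CPM in the same libraries (4.03, SE 1.51, edgeR adjusted p = 0.717). The part of that response in the adaptor values was not tested.

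Among 23 RNA-binding and microRNA adaptors 16 were positive and 7 negative (median 0.07), and at an unadjusted p of 0.05 there were 2 higher and 1 lower. Helz, a helicase that binds CCR4-NOT, was at 17.8, 17.4 and 23.2 CPM in controls, against 23.55, 23.9 and 27.3 CPM in nulls. The groups did not overlap, by a small margin (log2 fold change 0.36, SE 0.14, edgeR adjusted p = 0.639). Cpeb2, a binder of cytoplasmic polyadenylation elements, was at 67.5, 76.3 and 68.0 CPM against 53.6, 54.9 and 66.6 CPM. Its groups did not overlap either (-0.27, SE 0.10, adjusted p = 0.639). Of the 23 adaptors, 2 (Helz and Zfp36) were separated with null higher and 1 (Cpeb2) with null lower. Over all tested genes 6.21% and 6.47% were so separated, so these counts are near the background.

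The enzymes that lengthen tails and the proteins that coat them had list medians between 0.04 and 0.10. Poly(A) polymerases and terminal nucleotidyltransferases were 9 positive and 4 negative of 13 (median 0.10), and at an unadjusted p of 0.05 1 was lower. Tut1, which adds uridines to U6 RNA, was at -0.27 (edgeR adjusted p = 0.706), and the uridylyltransferase Tut7 (Zcchc6 in the table) at 0.18. Poly(A)-binding proteins were 8 positive and 3 negative (median 0.04), with 0 of 11 at an unadjusted p of 0.05. The cytoplasmic Pabpc1 was at 0.07 and the nuclear Pabpn1 at -0.15. The groups were separated with null lower for 1 of 13 (Tut1) and 1 of 11 in these lists, against 6.47% of all tested genes.

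Downstream of deadenylation, decapping and 5′ decay genes were 8 positive and 14 negative of 22 (median -0.02), and at an unadjusted p of 0.05 there were 2 higher, Pnrc1 and the 5′ exonuclease gene Xrn1 (0.30), the latter chosen after its values were seen. Pnrc1, a decapping cofactor, was at 36.1, 34.4 and 33.9 CPM in controls, against 49.3, 53.0 and 34.8 CPM in nulls (log2 fold change 0.39, SE 0.14, edgeR adjusted p = 0.63). As for Tob1, nulls 2 and 4 were high and null 10 was not. Lsm7, of the Lsm rings, one of which binds shortened tails, was at -0.33 (adjusted p = 0.778). The exosome list, with the rescue factors Hbs1l and Pelo, had 5 positive and 10 negative of 15 (median -0.02, range -0.12 to 0.14) and 0 at an unadjusted p of 0.05. Exosc1 was at 0.14 and Hbs1l at -0.06.

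**Figure D4:**
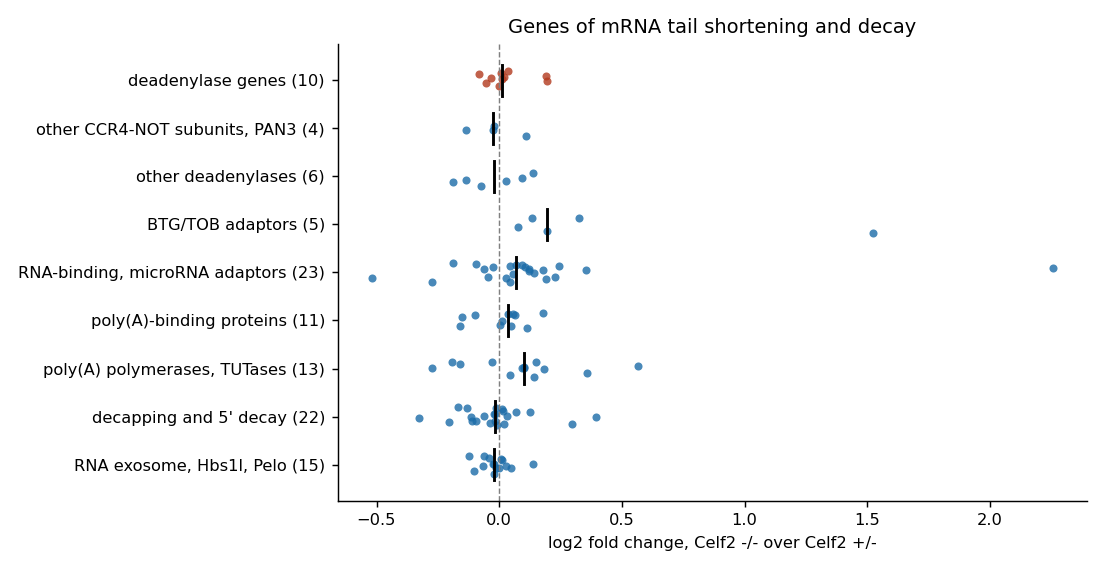
log2 fold change, null over control (horizontal axis), of each tested gene of the deadenylation machinery and of 8 related lists (rows, number tested in brackets), with each median as a bar. The 10 genes of the machinery lie between -0.08 and 0.20, with the non-catalytic Cnot1 and Cnot3 at the upper end. The 2 points beyond 1 are Btg2 and Zfp36.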

How the data were processed

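RNA was measured in 6 hemibrains, 3 per genotype. The authors deposited raw read counts, whole numbers for each gene symbol, with gene lengths. Per the labels' protocols, a stranded kit for total RNA was used, whereas the design text and molecule field name poly(A) RNA. This conflict was not resolved. Per the submitters' processing notes, CASAVA, cutadapt, STAR, Picard, bedtools and MACS2 were used with builds mm9 and hg19. How reads were counted (tool, strand, annotation) is not given in the sources used here, and overlapping genes are therefore uncertain.

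Genes kept by filterByExpr were tested with edgeR 4.0.16 (R 4.3.3), using TMM factors, quasi-likelihood fits with robust dispersion and Benjamini-Hochberg adjustment over 15925 genes. The standard error is the fold change over the square root of F. CPM and RPKM use TMM-scaled totals. The biological coefficient of variation was 13.9%. No pair of libraries was a duplicate (chi-square of at least 11.2 per gene). Alternatives used DESeq2 1.42.0 and limma 3.58.1, among others. Coding sequences were aligned with Biopython 1.88. Of these steps only the edgeR fit was run on simulated counts, which had the same dispersion for every gene, unlike real counts. From each list the gene of smallest p among positive and among negative fold changes is named, beside all 10 deadenylase genes. The deadenylase genes and the lists were chosen with earlier results of these data known. The symbols Skic2, Skic3 and Skic8 were not matched and are not analysed here.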

Additional observations from a re-analysis of the deposited data

How the results depend on the processing

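No deadenylase gene passed an adjusted p of 0.05 under any alternative that was run (0 of 10 each time), with the smallest adjusted p at 0.371. No paired analysis was possible because the labels name no litter and mark no pairs of samples. Leaving out each library gave log2 fold changes of 0.10 to 0.30 for Cnot1, -0.038 to 0.089 for Cnot2, 0.12 to 0.32 for Cnot3, -0.11 to 0.13 for Cnot4, -0.18 to 0.058 for Cnot6, -0.22 to 0.023 for Cnot6l, -0.11 to 0.046 for Cnot7, -0.021 to 0.057 for Cnot8, -0.070 to 0.046 for Parn, -0.050 to 0.13 for Pan2 and -0.18 to 0.039 for Celf2. The number of the 10 at an unadjusted p of 0.05 was then 0 to 2, and the median of the 10 was -0.035 to 0.073. Without control 11, 2 were higher in nulls, beside 959 of all 16031 genes tested in that fit. Without null 4, 2 were higher, beside 574 of 16056. Without null 10, 1 was lower, beside 575 of 16232. The sign of a fold change near 0 also followed the scaling. With upper-quartile factors it was -0.0023 for Cnot2, -0.013 for Cnot4 and -0.0080 for Cnot8. With library size alone, where the median of all genes was -0.085, it was -0.073 for Cnot2, -0.079 for Cnot4, -0.076 for Cnot8, -0.057 for Pan2 and -0.019 for Pabpc1. Without structural RNAs it was 0.0012 for Parn. Library size alone put list medians at -0.050 for poly(A)-binding proteins, 0.014 for poly(A) polymerases, -0.10 for decapping and -0.10 for the exosome. It put the RNA-binding adaptors at -0.011. Without single libraries the first 4 of these lay at -0.014 to 0.059, 0.0050 to 0.14, -0.057 to 0.0058 and -0.080 to 0.021, the BTG/TOB adaptors at 0.16 to 0.39, the RNA-binding adaptors at 0.0040 to 0.11, the other CCR4-NOT subunits and PAN3 at -0.083 to 0.063 and the other deadenylases at -0.11 to 0.0082. Over all genes the edgeR test called 1, and 0 with RLE factors, a CPM minimum, no robust dispersion or structural RNAs left out. It called 2 with upper-quartile factors, 2 with library size alone, 3 without a low-count filter and 0 to 4 without single libraries. Of the other methods, limma-voom called 0 and DESeq2 called 57. The cause of these shifts was not tested. Each of the 10 genes had at least 800 counts in every library. The parts of counting error and of the spread between libraries in the intervals were not separated.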
